A study of Mus musculus with 19 samples.

Results

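The transcription factor NF-κB controls the genes described here: *Tnf*, *Il1a*, *Il1b*, *Il6* and *Lif*, which encode cytokines, *Ptgs2*, which encodes an inducible enzyme, *Nfkb1* and *Relb*, which encode subunits of the factor, and *Nfkbia* and *Tnfaip3*, which encode its feedback inhibitors. These 10 genes were chosen by name out of the 46078 genes in the expression table, and all 10 were found. RNA-seq had been done on mammary glands and mammary tumors of mice that differ in p53 status of their fibroblasts. Glands of wild-type mice are called MG-WT (n = 3), and their genotype is given as Wild Type. Glands and tumors of *N* mice are called MG-N and T-N, and those of *NP* mice MG-NP and T-NP (n = 4 in each group).

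The *N* and *NP* mice were of mixed FVB, C57 and BALB/c background, and all carried MMTV-neu, a transgene that drives the oncogene neu (Erbb2) in mammary epithelium. All 4 T-N samples and MG-N replicate 1 had the genotype MMTV-neu;Fsp-Cre, in which Cre is meant to act in fibroblasts. The other MG-N samples were MMTV-neu;p53wm-R172H/+ without Cre, so their conditional p53 allele stays wild-type. All MG-NP and T-NP samples were MMTV-neu;p53wm-R172H/+;Fsp-Cre, in which fibroblasts switch 1 allele to the p53 mutant. MG-N and MG-NP glands came from tumor-bearing females and held no malignant lesion, whereas MG-WT glands came from normal mice of matched age on a genetic background not given in the sources used here. Ages in days are not given with the samples. T-NP replicates 1 and 2 carry the same number in their names, which may mark 1 mouse, and p-values then measure in part the spread within an animal.

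In resting cells, inhibitors of the IκB family, of which *Nfkbia* encodes the best known, hold NF-κB dimers in the cytoplasm. Signals from TNF, IL-1 or microbial products activate a kinase complex that removes the inhibitor, the dimers enter the nucleus, and cytokine genes are switched on together with *Nfkbia* and *Tnfaip3*, whose products end the response. Such genes respond within minutes to hours in macrophages, fibroblasts and epithelial cells.

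The upstream sequences of the 4 genes with a match to the κB consensus, the site that NF-κB dimers bind, are shown as a description. The shared pattern described below held for all 10 genes, also for those without a match, and its link to these matches was not tested. The sequences are from RefSeq on GRCm38.p6 and run 5′ to 3′ on the strand of the gene, with the match on either strand in capitals. For *Il6* (chr5:30012864-30013113, plus strand) the match lies 44 to 35 bases before the RefSeq start of the transcript. For *Lif* (chr11:4257318-4257556, plus strand) it lies 178 to 169 bases before the start. For *Nfkbia* (chr12:55492648-55492897, minus strand) it lies 29 to 20 bases before the start. For *Tnfaip3*, windows of 30 bases on the minus strand are given at chr10:19015516-19015545, with a match 125 to 116 bases before the start, and at chr10:19015411-19015440, with a match 12 to 3 bases before it. Both windows precede this RefSeq start but lie inside the gene by the coordinates given below. Another RefSeq start of *Tnfaip3*, at chr10:19011963, had no match.
Il6: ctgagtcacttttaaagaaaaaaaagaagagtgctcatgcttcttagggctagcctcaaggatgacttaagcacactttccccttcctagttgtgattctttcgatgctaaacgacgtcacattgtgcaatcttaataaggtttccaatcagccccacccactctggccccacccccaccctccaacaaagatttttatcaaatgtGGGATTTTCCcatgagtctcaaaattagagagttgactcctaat
Lif: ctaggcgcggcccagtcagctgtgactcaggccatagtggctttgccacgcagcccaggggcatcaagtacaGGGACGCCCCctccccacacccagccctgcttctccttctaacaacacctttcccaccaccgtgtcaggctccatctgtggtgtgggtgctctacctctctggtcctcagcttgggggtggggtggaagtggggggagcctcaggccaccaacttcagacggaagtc
Nfkbia: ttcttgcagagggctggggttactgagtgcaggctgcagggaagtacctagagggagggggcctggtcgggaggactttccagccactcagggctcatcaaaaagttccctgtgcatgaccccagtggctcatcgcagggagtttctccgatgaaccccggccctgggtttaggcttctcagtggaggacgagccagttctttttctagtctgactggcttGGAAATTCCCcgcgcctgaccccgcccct
Tnfaip3, distal: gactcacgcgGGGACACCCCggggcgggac
Tnfaip3, proximal: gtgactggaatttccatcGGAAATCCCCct
Of 32851 promoters searched in the same 250 bases, 7.25% held such a match. Entries existed for 8 of the 10 genes. Those of *Tnf*, *Il1a*, *Il1b* and *Ptgs2* held no match in this window, which says nothing of sites outside it. A match is a string of letters and not a measured binding site.

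The genes lie on 9 chromosomes (GRCm38 coordinates): *Tnf* on chr17:35199381-35202007, *Il6* on chr5:30013114-30019981, *Lif* on chr11:4257557-4272514, *Ptgs2* on chr1:150100031-150108227, *Nfkb1* on chr3:135584655-135691547, *Relb* on chr7:19606217-19629438, *Nfkbia* on chr12:55489410-55492647 and *Tnfaip3* on chr10:19000910-19015657. *Il1a* (chr2:129299610-129309972) and *Il1b* (chr2:129364570-129371139) are neighbors on the minus strand, 54597 bases apart. Each of these 2 overlaps a gene on the opposite strand, *Gm14023* and *Il1bos*, and without a stated strand setting the reads of such partners cannot be told apart. The partners held at most 23.2 and 10.8 normalized counts in any library. *Nfkb1* overlaps *Gm43430* on its own strand, which held 37.5 to 1403 normalized counts and was itself highest in the MG-WT libraries.

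The MG-WT libraries stood apart from the rest in ways other than genotype. They held 54677315 to 62645459 reads, against 20899152 to 27262440 in the other 16, so depth and group cannot be told apart. Marker lists are summarized as the mean log2(normalized count + 1) of their genes. The 9 white adipocyte markers scored 5.11 to 6.33 in MG-WT and 13.5 to 15.0 in the 8 glands of *N* and *NP* mice, and the 8 luminal epithelial markers scored 12.8 to 12.98 and 9.47 to 11.3. The MG-WT libraries were thus low in the fat markers that define a whole mammary gland. Skeletal muscle markers (12 genes) scored 2.65 to 3.01 in MG-WT and reached 17.3 and 16.6 in MG-NP replicates 2 and 4. In bulk tissue, fewer cells of a type and less RNA per cell cannot be told apart.

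All 10 genes had their 3 highest values in the 3 MG-WT libraries, a pattern that 13.5% of the 20392 genes in use shared. The distance between the groups differed widely from gene to gene. The lowest MG-WT value was 38.9 times the highest value in any other library for *Il6*, 4.37 times for *Nfkbia*, 3.64 times for *Lif*, 3.22 times for *Tnfaip3*, 3.09 times for *Il1a* and 2.86 times for *Tnf*. It was 1.78 times for *Ptgs2*, 1.54 times for *Relb*, 1.35 times for *Nfkb1* and 1.03 times for *Il1b*. The plot of values by library shows this separation gene by gene.

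**Figure D1:**
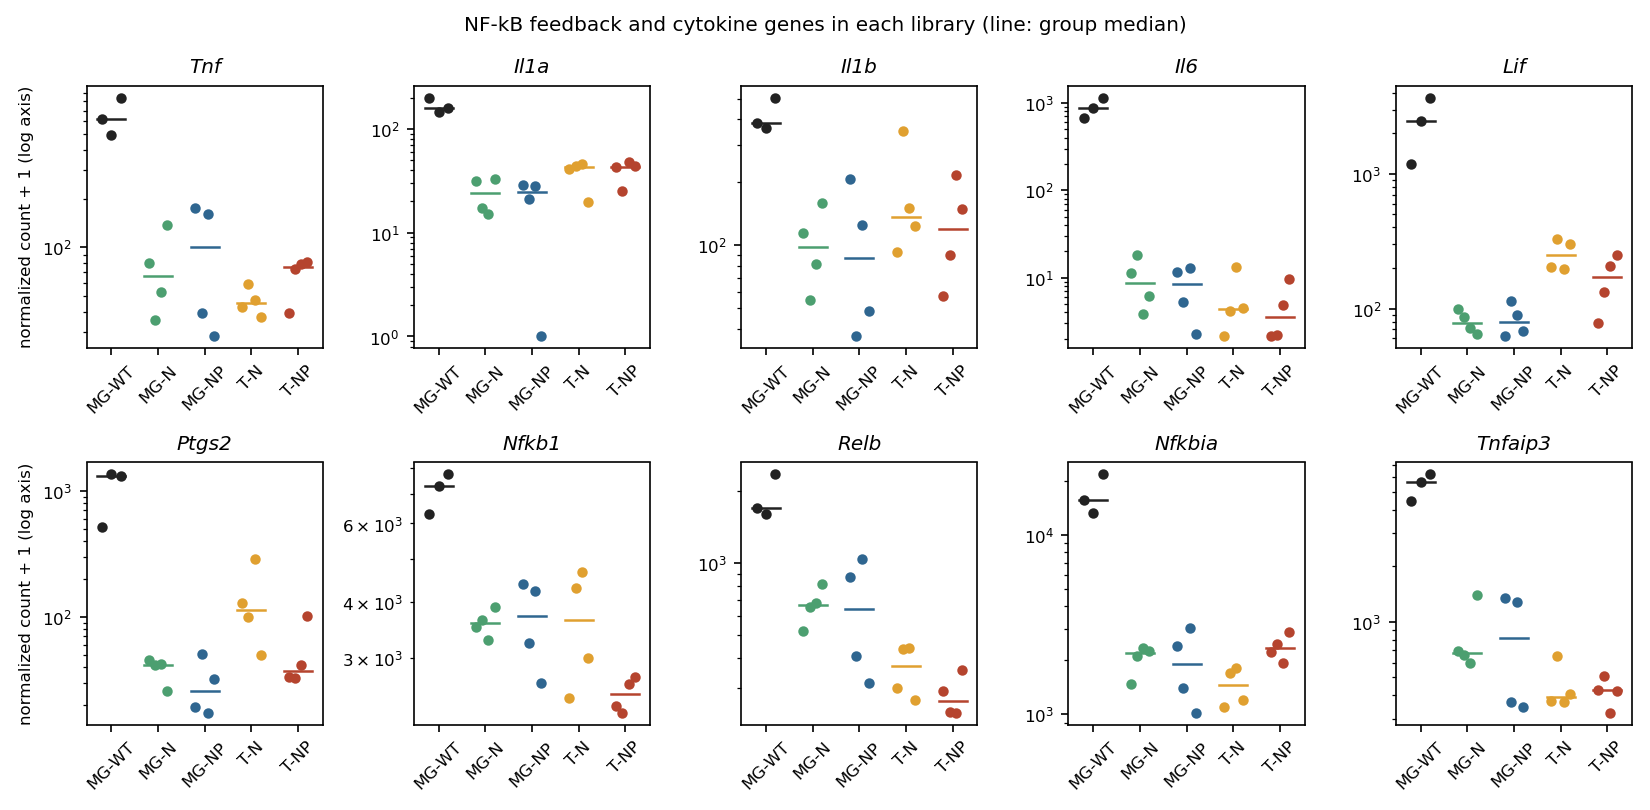
Normalized count + 1 on a log axis for each of the 10 genes, with 1 point per library and a line at the group median, for MG-WT (n = 3) and for the glands and tumors of *N* and *NP* mice (n = 4 each). The MG-WT points lie above all others in every panel, by the widest gap for *Il6* and with almost no gap for *Il1b*.

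The order of levels within a group was read from values per kilobase of exon, since longer genes collect more reads. *Nfkbia* was highest in all 5 groups, with mean normalized counts per kilobase of 10482 in MG-WT, 1270.1 in MG-N, 1220.1 in MG-NP, 904 in T-N and 1474 in T-NP. *Tnfaip3* came next in MG-WT with 754, whereas *Nfkb1* came next in the other groups with 206 to 300.2. *Il6* ranked seventh in MG-WT with 369.6 per kilobase. It was the lowest of the 10 in each other group, with 1.54 to 3.64 per kilobase.

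Comparisons with MG-WT ask how glands and tumors of the cancer-prone mice differ from normal glands. All 10 genes were lower in each of the 4 groups by limma at a Benjamini-Hochberg adjusted p under 0.05, as were 29.2% of all genes tested in MG-N, 24% in MG-NP, 30.6% in T-N and 37% in T-NP. With the further demand of a 2-fold difference, 9 were called lower in MG-N, 9 in MG-NP, 10 in T-N and 10 in T-NP, and none was called higher. Of all genes tested, 17.9% were called lower in MG-N, 16.2% in MG-NP, 25% in T-N and 28% in T-NP, while 19.1%, 16.4%, 17.4% and 19.8% were called higher. The median log2 fold change of the 10 genes was -2.95 in MG-N, -3.15 in MG-NP, -3.10 in T-N and -3.05 in T-NP, beside medians over all tested genes of 0.02, 0.02, -0.09 and -0.08. The 4 comparisons share the same MG-WT libraries and are not independent of each other.

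Among the cytokines, *Il6*, which encodes a signal that acts through gp130 receptors and STAT3, differed most. Its values in MG-WT were 671, 881 and 1139.8 normalized counts. They were 10.2, 17.2, 2.82 and 5.15 in MG-N, whereas MG-NP had 10.5, 4.28, 11.9 and 1.29. T-N tumors had 1.14, 3.16, 12.1 and 3.5, and T-NP tumors 1.12, 1.22, 3.9 and 8.74. No value outside MG-WT exceeded 17.2, and the other 4 groups overlapped one another. Behind the tumor values stood 1 to 12 reads, so their order was not resolved at this depth. On the log2(normalized count + 1) scale the difference from MG-WT was -6.72 (SE 0.51) in MG-N, -7.08 (SE 0.62) in MG-NP, -7.52 (SE 0.59) in T-N and -7.83 (SE 0.55) in T-NP. The limma adjusted p-values of these were 2.46e-05, 0.000269, 7.45e-05 and 8.01e-06.

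*Lif*, which encodes another cytokine of the IL-6 family, had 1189, 2455 and 3656 normalized counts in MG-WT. It had 98.1, 85.0, 70.4 and 63.9 in MG-N, and the MG-NP glands had 61.0, 113, 88.8 and 67.1. The tumor values ran from within the gland range upward, with 201.1, 327, 196 and 299.9 in T-N and 77.4, 132, 207 and 248 in T-NP. MG-WT itself spread 3.08-fold between its lowest and highest library, the widest of the 10 genes in that group. The difference from MG-WT was -4.80 (SE 0.35) in MG-N, -4.76 (SE 0.40) in MG-NP, -3.14 (SE 0.39) in T-N and -3.85 (SE 0.47) in T-NP on the log2 scale, with limma adjusted p-values from 2.1e-05 to 0.000445.

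*Tnf* encodes a cytokine that is itself a classic trigger of the pathway. It had 617, 497 and 838 normalized counts in MG-WT, 79.0, 34.5, 51.7 and 136 in MG-N, whereas MG-NP had 174, 38.5, 159 and 27.1. T-N had 42.0, 58.0, 46.5 and 36.2 and T-NP had 38.1, 72.0, 77.9 and 79.9. The MG-NP glands split into a high pair and a low pair, 6.4-fold apart at the extremes, and this range covered every tumor value. *Tnf* was 9.47-fold lower in MG-N, 8.53-fold in MG-NP, 13.8-fold in T-N and 9.74-fold in T-NP, with limma adjusted p-values of 0.000404, 0.00961, 6.35e-05 and 3.23e-05.

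The interleukin-1 genes encode a pair of agonists of 1 receptor. *Il1a* had 197, 144 and 157 normalized counts in MG-WT, and between 0 and 46.8 in the other 16 libraries. The value of 0 belonged to MG-NP replicate 4, where 3 reads would correspond to 3.87 normalized counts. *Il1b* had 384, 361 and 505 in MG-WT, and the other libraries ran from 35.7 in MG-NP replicate 2 to 349.8 in T-N replicate 2, just under the lowest MG-WT value. *Il1b* fell least of the cytokines, by 2.12 (SE 0.35) in MG-N, 2.32 (SE 0.60) in MG-NP, 1.40 (SE 0.44) in T-N and 1.86 (SE 0.42) in T-NP on the log2 scale. Its limma adjusted p-values were 0.00116, 0.0164, 0.0267 and 0.00399. *Il1a* fell by 2.87, 3.86, 2.22 and 2.1 in the same order, and the MG-NP estimate, which includes the library at 0, had the widest interval (-6.58 to -1.15). Without that library the fall in MG-NP was 2.69 and was still called. The calls in MG-NP rested on few libraries: without any single one of the MG-WT libraries the adjusted p of *Il1a* rose above 0.05, as did that of *Il1b* without MG-WT replicate 1 or 3. The T-N call of *Il1b* was lost without MG-WT replicate 1, 2 or 3 or T-N replicate 4.

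*Ptgs2* encodes cyclooxygenase-2, the inducible enzyme at the head of prostaglandin synthesis. It had 513, 1348 and 1309.8 normalized counts in MG-WT, 44.6, 40.2, 41.3 and 24.7 in MG-N, and the MG-NP glands had 18.1, 49.96, 16.2 and 31.0. T-N had 128, 98.0, 288 and 49.0, and T-NP had 32.5, 31.7, 40.3 and 101. *Ptgs2* was 25.6-fold lower than in MG-WT in MG-N, 35.8-fold in MG-NP, 8.31-fold in T-N and 20.9-fold in T-NP, with limma adjusted p-values of 3.1e-05, 0.000395, 0.00367 and 7.36e-05.

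The subunit genes differed less. *Nfkb1* encodes p105, the precursor of the p50 subunit, and *Relb* encodes a subunit of the non-canonical branch. *Nfkb1* had 6294, 7285 and 7728 normalized counts in MG-WT, 3515, 3651, 3295 and 3899 in MG-N, whereas MG-NP had 4397, 3230.2, 4224 and 2632. It had 2435, 4304, 4677 and 2992 in T-N and 2342, 2256, 2622 and 2712 in T-NP. Its fall of 0.98 (SE 0.11) in MG-N and 0.997 (SE 0.20) in MG-NP passed the adjusted p in limma (0.000185 and 0.0067) and lay just short of 2-fold. The falls of 1.02 (SE 0.24) in T-N and 1.51 (SE 0.12) in T-NP were called, with limma adjusted p-values of 0.00858 and 1.2e-05. The T-N fall dropped below 2-fold without MG-WT replicate 3 or T-N replicate 1 or 4.

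*Relb* had 1693, 1601 and 2338 normalized counts in MG-WT, 517, 653, 676 and 817 in MG-N, and the MG-NP glands had 872, 405, 1037 and 312. T-N had 299.9, 437, 440.3 and 267, and T-NP had 290.4, 238, 235 and 357. *Relb* thus stepped down from MG-WT to the glands of *N* and *NP* mice and again to the tumors, although the low pair of MG-NP glands reached the tumor range. It was 2.81-fold lower than in MG-WT in MG-N, 3.18-fold in MG-NP, 5.24-fold in T-N and 6.68-fold in T-NP (limma adjusted p = 0.000307, 0.0173, 0.000211 and 9.06e-06). The MG-NP call was lost without MG-WT replicate 1 or 3.

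The feedback inhibitors were lower as well. *Nfkbia*, which encodes IκBα, had 15612, 13272 and 21743 normalized counts in MG-WT, 1474, 2110.1, 2331 and 2265 in MG-N, whereas MG-NP had 2396, 1406, 3039 and 1016. It had 1104, 1708, 1805 and 1202 in T-N and 2221, 2462, 1922 and 2890.4 in T-NP. Its log2 difference from MG-WT was -3.04 (SE 0.21) in MG-N, -3.20 (SE 0.39) in MG-NP, -3.54 (SE 0.24) in T-N and -2.81 (SE 0.20) in T-NP, with limma adjusted p-values from 7.69e-06 to 0.000885.

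*Tnfaip3*, which encodes the ubiquitin-editing enzyme A20, had 4462, 5679 and 6201 normalized counts in MG-WT. MG-N had 690.3, 661, 597 and 1384, and MG-NP had 1331, 369.7, 1267 and 347. The tumors had 374, 655, 369.6 and 408 in T-N and 426, 509, 321 and 423 in T-NP. MG-NP again split into a high and a low pair, the same libraries as for *Tnf* and *Relb*. *Tnfaip3* was 6.88-fold lower than in MG-WT in MG-N, 7.9-fold in MG-NP, 12.3-fold in T-N and 13-fold in T-NP (limma adjusted p = 0.000104, 0.00412, 3.77e-05 and 1.69e-06).

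Other measures moved with these falls. The 12 immediate-early genes, such as *Fos*, *Egr1* and *Atf3*, which switch on within minutes of a stimulus, scored 14.1 to 14.6 in MG-WT, as against 7.56 to 8.96 elsewhere, and all 12 were called lower in each of the 4 comparisons. They took 1.36% to 1.80% of all reads in MG-WT and at most 0.0429% elsewhere. *Fos* alone was lower by 8.14 in MG-N and 6.99 in T-N on the log2 scale. The 4 heat-shock genes scored 12.5 to 13.2 in MG-WT and 8.56 to 11.1 elsewhere. The 6 basal epithelial markers, such as *Krt5* and *Krt14*, scored 12.7 to 12.9 in MG-WT, 9.23 to 10.7 in the other glands and 4.94 to 7.45 in tumors, and all 6 were called lower in each of the 4 comparisons, with none at 0 in any library. The 8 macrophage markers went the other way, with scores of 8.94 to 9.45 in MG-WT and 10.2 to 12.6 elsewhere, and none was at 0 in any library. The 8 neutrophil markers scored 2.68 to 4.31 in MG-WT and 3.34 to 9.28 elsewhere, with up to 1 of them at 0 in a MG-WT library. The part of the immediate-early state, cell makeup and depth in the falls was not tested.

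**Figure D2:**
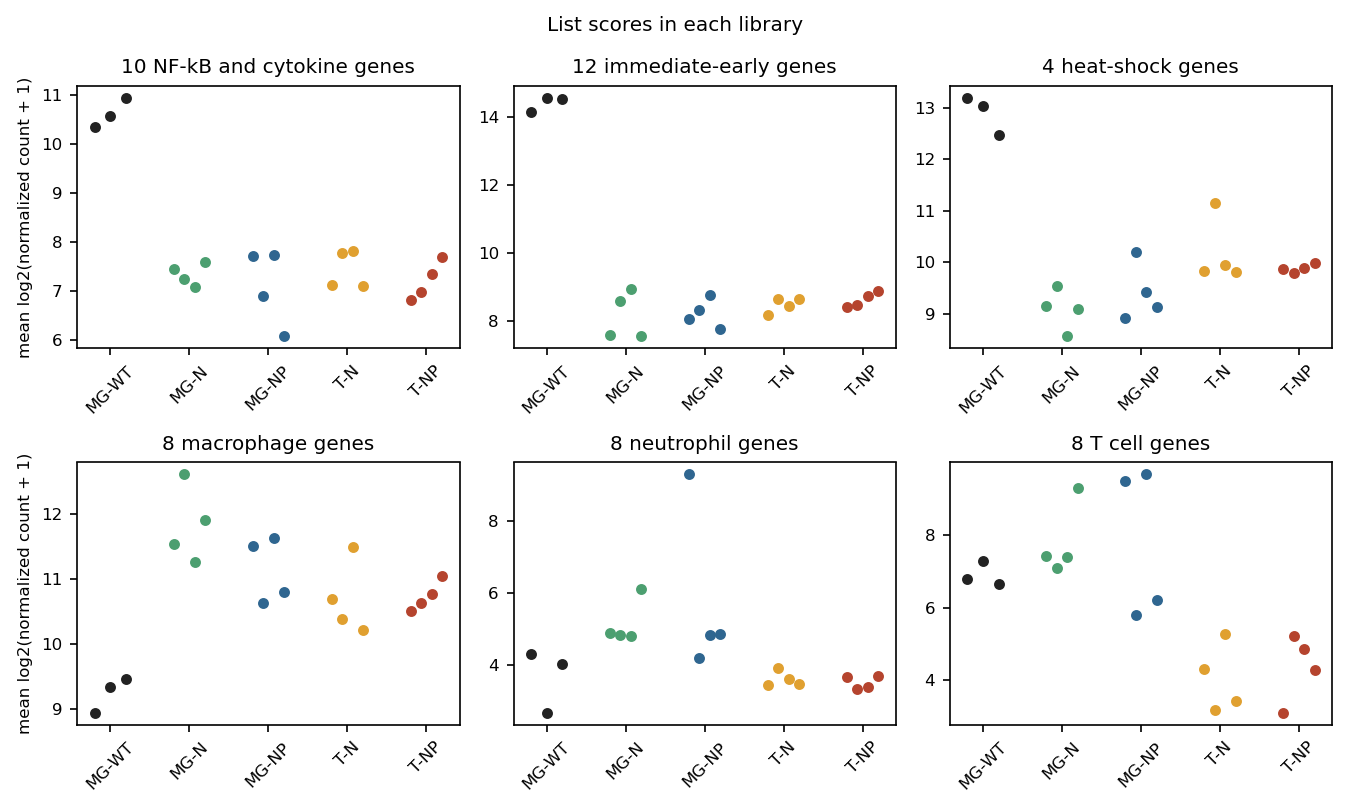
Mean log2(normalized count + 1) of each list in each library, with 1 point per library and panels for the 10 NF-κB and cytokine genes and 5 marker lists. MG-WT points lie highest for the 10 genes, the immediate-early genes and the heat-shock genes, and lowest for the macrophage markers, while T cell markers reach 9.67 in the glands.

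The wider pathway was followed with a list of 70 other genes of NF-κB signaling and its outputs. Of 67 tested, 25 were called lower and 4 higher in MG-N than in MG-WT (median log2 fold change -0.72), and 23 lower and 2 higher in MG-NP (median -0.82). In the tumors 68 were tested, of which 32 were lower and 3 higher in T-N (median -1.10) and 36 lower and 3 higher in T-NP (median -1.46). Over all genes, the shares called lower and higher were 17.9% and 19.1% in MG-N, 16.2% and 16.4% in MG-NP, 25% and 17.4% in T-N, and 28% and 19.8% in T-NP. The other subunit genes *Rela*, *Rel* and *Nfkb2* were called lower in all 4 comparisons. Of the 7 genes of the activating kinases and their partner proteins, 0 were called in either gland comparison, and 1 was called lower in each tumor comparison. Of the 16 receptor and adaptor genes, 1 was lower in MG-N, and 2 were in MG-NP glands. In the tumors 3 of them were lower and 1 higher in T-N, and 4 were lower and 2 higher in T-NP.

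The largest falls in MG-N were those of *Socs3* (-6.20), which encodes an inhibitor of STAT3 signaling, the neutrophil chemokines *Cxcl1* (-6.10) and *Cxcl2* (-5.69), and the early response gene *Ier3* (-5.38). In MG-NP they were *Cxcl1* (-6.20), *Cxcl2* (-6.13), *Socs3* (-5.87) and *Zfp36* (-5.19), the last encoding a protein that degrades cytokine mRNA. In T-N and T-NP, *Sele*, the endothelial adhesion molecule E-selectin, led with -8.55 and -9.13, followed by *Socs3* (-5.85 and -6.09) and *Icam1* (-5.70 and -5.57). *Zfp36* (-5.09) came next in T-N and *Cxcl2* (-5.06) in T-NP. The rises were smaller. In MG-N they were *Il1r2* (1.85), which encodes a decoy receptor for IL-1, *Ptgis* (1.67), *Plau* (1.39) and *Hpgd* (1.01), and in MG-NP *Ptgis* (1.33) and *Il1r2* (1.10). T-N had *Ptgds* (3.01), *Bcl2a1b* (2.79) and *Il1rap* (1.94), and T-NP had *Bcl2a1b* (2.66), *Il1rap* (1.59) and *Tradd* (1.16). *Bcl2a1b* has near-identical copies, so its reads are uncertain. It held at most 3.62 normalized counts in a MG-WT library, and *Cxcl2* at most 14.1 in MG-N, MG-NP or T-NP. The fold changes of both therefore depend on the added 1.

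The tumors were next compared with glands of the same cohort, which leaves MG-WT out. All T-N tumors carried Fsp-Cre and no conditional p53 allele, whereas MG-N replicates 2, 3 and 4 carried that allele and no Cre. Tissue and genotype are therefore partly confounded in T-N against MG-N and in the interaction tested below. In T-N against MG-N, *Lif* and *Ptgs2* were called higher, as were 12.8% of all genes tested, and none of the 9 genes tested was called lower, as were 22.3% of all. *Il6* was not tested because too few libraries reached 10 normalized counts. Every T-N value of *Lif* was above every MG-N value, as held for 22.7% of all genes, and the difference was 1.66 (SE 0.26, limma adjusted p = 0.00115), a rise of 3.16-fold. For *Ptgs2* the T-N values also lay above all MG-N values, with 49.0 in T-N replicate 4 close to 44.6 in MG-N replicate 1. The *Ptgs2* difference was 1.62 (SE 0.51, limma adjusted p = 0.0256), and its adjusted p rose to 0.0503, 0.0699 and 0.0508 without MG-N replicate 2, MG-N replicate 4 and T-N replicate 1.

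*Relb* and *Tnfaip3* were lower in T-N than in MG-N by less than 2-fold, beside 27.8% of all genes that were lower at an adjusted p under 0.05. *Relb* fell by 0.90 (SE 0.23, limma adjusted p = 0.0102), with every T-N value under every MG-N value, as held for 26.4% of all genes. *Tnfaip3* fell by 0.84 (SE 0.30, limma adjusted p = 0.0454), and the groups overlapped. *Nfkbia* differed by -0.50 (95% interval -0.99 to -0.01), which did not pass (limma adjusted p = 0.082). *Tnf* differed by -0.55 (-1.51 to 0.42), *Il1a* by 0.65 (-0.30 to 1.60), *Il1b* by 0.72 (-0.35 to 1.80) and *Nfkb1* by -0.04 (-0.52 to 0.44).

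In T-NP against MG-NP, only *Relb* of the 9 genes tested was called, at -1.07 (SE 0.39, limma adjusted p = 0.0415), beside 24% of all genes called lower and 14.7% called higher. The call was lost without any single library among MG-NP replicates 1 and 3 and the 4 T-NP replicates, and the groups overlapped. *Nfkb1* was lower by 0.52 (SE 0.18, limma adjusted p = 0.0354), short of 2-fold, and 29.3% of all genes were lower at that adjusted p. *Lif* was 1.88-fold higher (0.91, SE 0.39), which did not pass (limma adjusted p = 0.0784). Without T-NP replicate 1, the lowest tumor for *Lif*, the difference was 1.23 and was called. *Ptgs2* differed by 0.78 (-0.35 to 1.90), *Tnfaip3* by -0.72 (-1.79 to 0.35), *Nfkbia* by 0.39 (-0.36 to 1.13), *Tnf* by -0.19 (-1.63 to 1.25) and *Il1b* by 0.46 (-0.96 to 1.88). *Il1a* differed by 1.76 (-0.55 to 4.08), an interval that again includes the library at 0.

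MG-NP replicates 2 and 4, richest in muscle RNA, were the low pair for *Tnf*, *Il1a*, *Il1b*, *Il6*, *Nfkb1*, *Relb*, *Nfkbia* and *Tnfaip3*. For *Ptgs2* the same libraries were the high pair. With both left out, a choice made after the values were seen, *Tnf* (-1.36, limma adjusted p = 0.0196), *Relb* (-1.78, adjusted p = 0.000733) and *Tnfaip3* (-1.65, adjusted p = 0.00067) were called lower in T-NP than in the MG-NP glands that remained. Against MG-WT, the same step moved *Il1a* in MG-NP from -3.86 to -2.55, *Tnf* from -3.09 to -1.93, *Il1b* from -2.32 to -1.35, *Tnfaip3* from -2.98 to -2.05, *Il6* from -7.08 to -6.17, *Nfkbia* from -3.20 to -2.61 and *Relb* from -1.67 to -0.96, which was no longer called. *Nfkb1* moved from -0.997 to -0.715. The falls of *Ptgs2* and *Lif* grew instead, from -5.16 to -5.74 and from -4.76 to -4.88. The other calls in that comparison were kept. MG-NP replicate 1, which stayed in, also had a high muscle score (14.5, against at most 9.95 in MG-N).

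**Figure D3:**
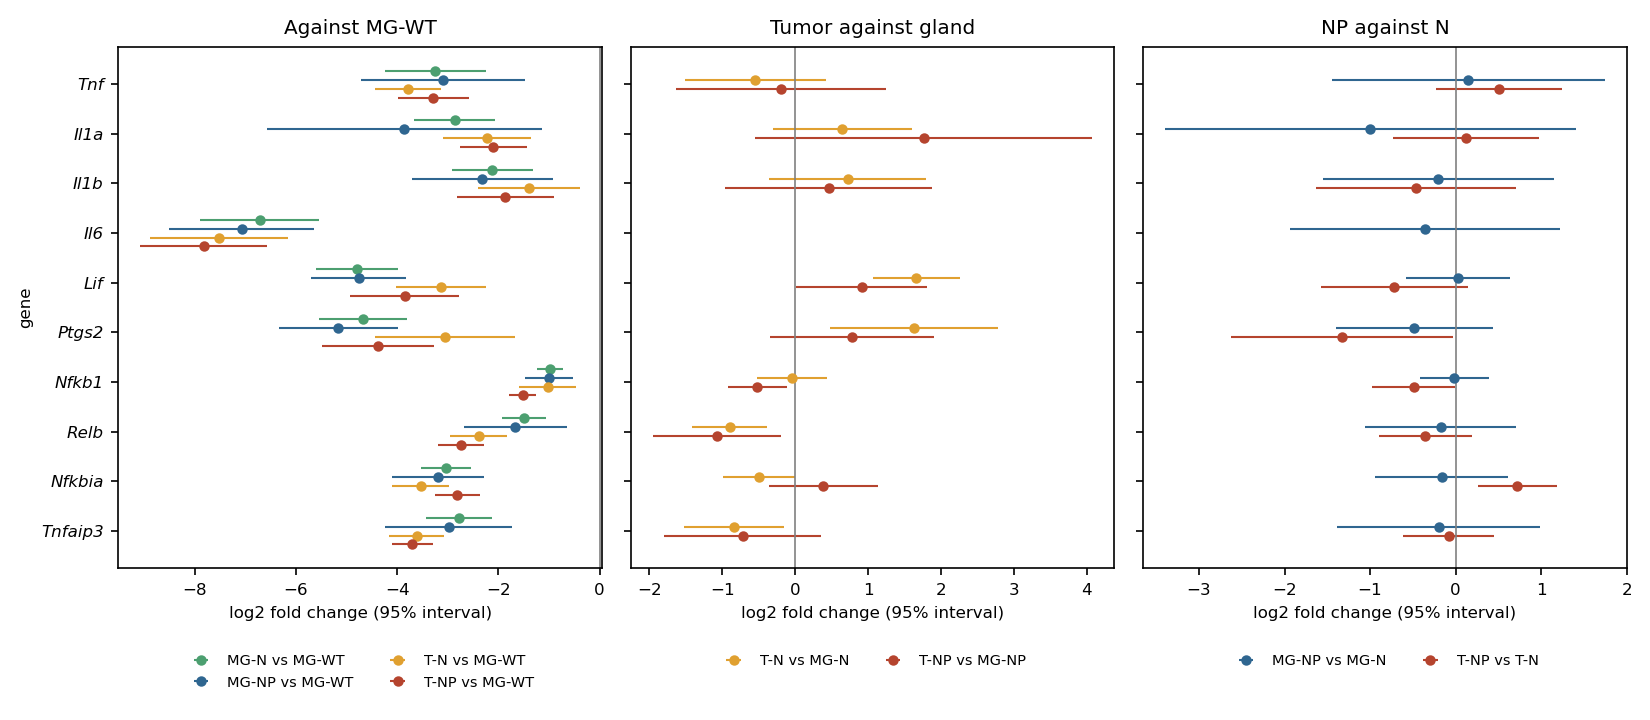
Log2 fold change with its 95% interval from limma for each gene, in 3 panels: the 4 groups against MG-WT, tumor against gland within *N* and within *NP* mice, and *NP* against *N* in glands and in tumors. All estimates against MG-WT lie below 0, whereas *Lif* and *Ptgs2* lie above 0 in T-N against MG-N and most intervals of *NP* against *N* include 0.

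The pathway list was also counted in both tumor comparisons, which do not share libraries. Of 66 genes tested, 4 were called higher and 21 lower in T-N against MG-N, and 3 higher and 18 lower in T-NP against MG-NP. Of all genes tested, 12.8% were called higher and 22.3% lower in the first comparison, and 14.7% and 24% in the second. *Ier3* (4.83 and 4.81), *Cxcl1* (2.83 and 3.10) and *Il1rap* (2.49 and 2.41), which encodes a subunit of the IL-1 receptor, led the rises in both, with *Ptgds* (2.89) in T-N. *Rel* fell by 1.42 and 2.28. The largest falls in T-N were *Ptges* (-3.91), which encodes the enzyme that makes prostaglandin E2 downstream of *Ptgs2*, *Sele* (-3.34), *Il1r2* (-3.21) and *Ptger2* (-3.09). In T-NP they were *Sele* (-4.61), *Ptges* (-3.33), *Ptgis* (-3.03) and the IL-1 receptor gene *Il1r1* (-2.88). *Sele* was at 0 in 1 library of each tumor group and had at most 21.2 normalized counts in a tumor, so its fold changes depend on the added 1. The 8 T cell markers scored 3.09 to 5.28 in the tumors and 5.80 to 9.67 in the glands, the 6 endothelial markers 8.80 to 9.75 and 10.97 to 12.1, and the 8 luminal markers 12.4 to 13.1 and 9.47 to 11.3. Their part in these differences was not tested.

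The comparison at the center of the study, *NP* against *N*, asks what a mutant p53 allele in fibroblasts changes. MG-N replicates 2, 3 and 4 carried no Fsp-Cre, so Cre and the mutation are partly confounded in glands. T-N tumors carried no conditional allele, so in tumors its presence and the mutation cannot be told apart. In glands, 0 of the 10 genes were called, and 0% of all 18563 genes tested passed in limma. edgeR also called 0 genes, while DESeq2 called 401 higher and 113 lower, none of them among the 10. The limma count depended on 1 library, since 297 genes were called higher and 21 lower without MG-NP replicate 3. None of the 10 had an unadjusted p under 0.05, whereas 1950 of all genes did. The estimates ran from -0.997 for *Il1a* to 0.15 for *Tnf*, with 95% intervals that together spanned -3.40 to 1.75, so differences of 2-fold were not resolved for most of these genes. The narrowest intervals were those of *Nfkb1* (-0.42 to 0.39) and *Lif* (-0.58 to 0.64). With the muscle-rich MG-NP replicates 2 and 4 left out, a choice made after the values were seen, estimates ran from -1.06 for *Ptgs2* to 1.31 for *Tnf*. Those of *Il1a*, *Il1b*, *Il6*, *Nfkb1*, *Relb*, *Nfkbia* and *Tnfaip3* turned positive and that of *Lif* negative, and none was called. MG-N and MG-NP overlapped for all 10 genes. Of all genes tested, 2.06% did not overlap and were higher in MG-NP, and 4.15% did not overlap and were lower.

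In tumors, 0 of the 9 genes tested were called in T-NP against T-N, beside 0.0421% of 16638 genes. That share stood for 7 genes, which became 34 higher and 18 lower without T-N replicate 1 and 0 without any other single library. *Nfkbia* came closest. Its T-NP values (1922 to 2890.4) all exceeded its T-N values (1104 to 1805), as did those of 2.64% of all genes tested. The difference was 0.72 (SE 0.20), a level 1.65-fold higher in T-NP, and it did not pass (limma adjusted p = 0.615). *Ptgs2* was lower in T-NP by 1.33 (95% interval -2.63 to -0.03) and *Nfkb1* by 0.49 (-0.97 to -0.01), and neither passed (limma adjusted p = 0.682 for both). *Tnf* differed by 0.51 (-0.23 to 1.24), *Lif* by -0.72 (-1.58 to 0.15), *Il1b* by -0.47 (-1.64 to 0.70), *Relb* by -0.35 (-0.89 to 0.19), *Il1a* by 0.12 (-0.74 to 0.97) and *Tnfaip3* by -0.08 (-0.62 to 0.45). Of the 65 pathway genes tested in each of the glands and the tumors, 0 were called.

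Whether the difference between tumor and gland depended on genotype was tested in the 16 libraries without MG-WT. None of the 10 genes passed in limma, as none of 19367 genes did in limma or edgeR, although 1536 had an unadjusted p under 0.05 and DESeq2 called 50 higher and 269 lower. With a library left out, limma called 194 genes without MG-NP replicate 3, most of them lower, 20 without T-N replicate 1 and 2 without MG-NP replicate 4. *Nfkbia* had the smallest p: tumor against gland was 0.89 higher in *NP* than in *N* mice on the log2 scale (95% interval 0.00 to 1.77, limma adjusted p = 0.628). *Lif* (-0.75, -1.77 to 0.27) and *Ptgs2* (-0.85, -2.42 to 0.72) had negative estimates. The rise of *Lif* and *Ptgs2* in T-N tumors was therefore not shown to differ from that in T-NP tumors.

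Among the 8 glands of *N* and *NP* mice, the 3 highest values of *Tnf*, *Il1b*, *Nfkb1*, *Relb* and *Tnfaip3* all belonged to MG-N replicate 4 and MG-NP replicates 1 and 3. Of the 3 highest values, 2 were in these glands for each of *Il1a*, *Il6* and *Nfkbia*, and 1 was for *Lif*. How many of all genes share this order was not counted. The same 3 glands had the highest T cell scores, 9.29, 9.50 and 9.67, against 5.80 to 7.43 in the other 5. All 8 T cell markers were above 0 in every library. They also had the highest scores of the 6 B cell markers, 10.3, 10.2 and 11.1, against at most 9.79 elsewhere. *Ptgs2* showed the opposite order, with its 3 lowest values of 24.7, 18.1 and 16.2 in these glands. The part of lymphocyte content in these levels was not tested. The neutrophil score was 9.28 in MG-NP replicate 1, which also had the highest *Il1b* of the 8, and at most 6.10 in the others.

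**Figure D4:**
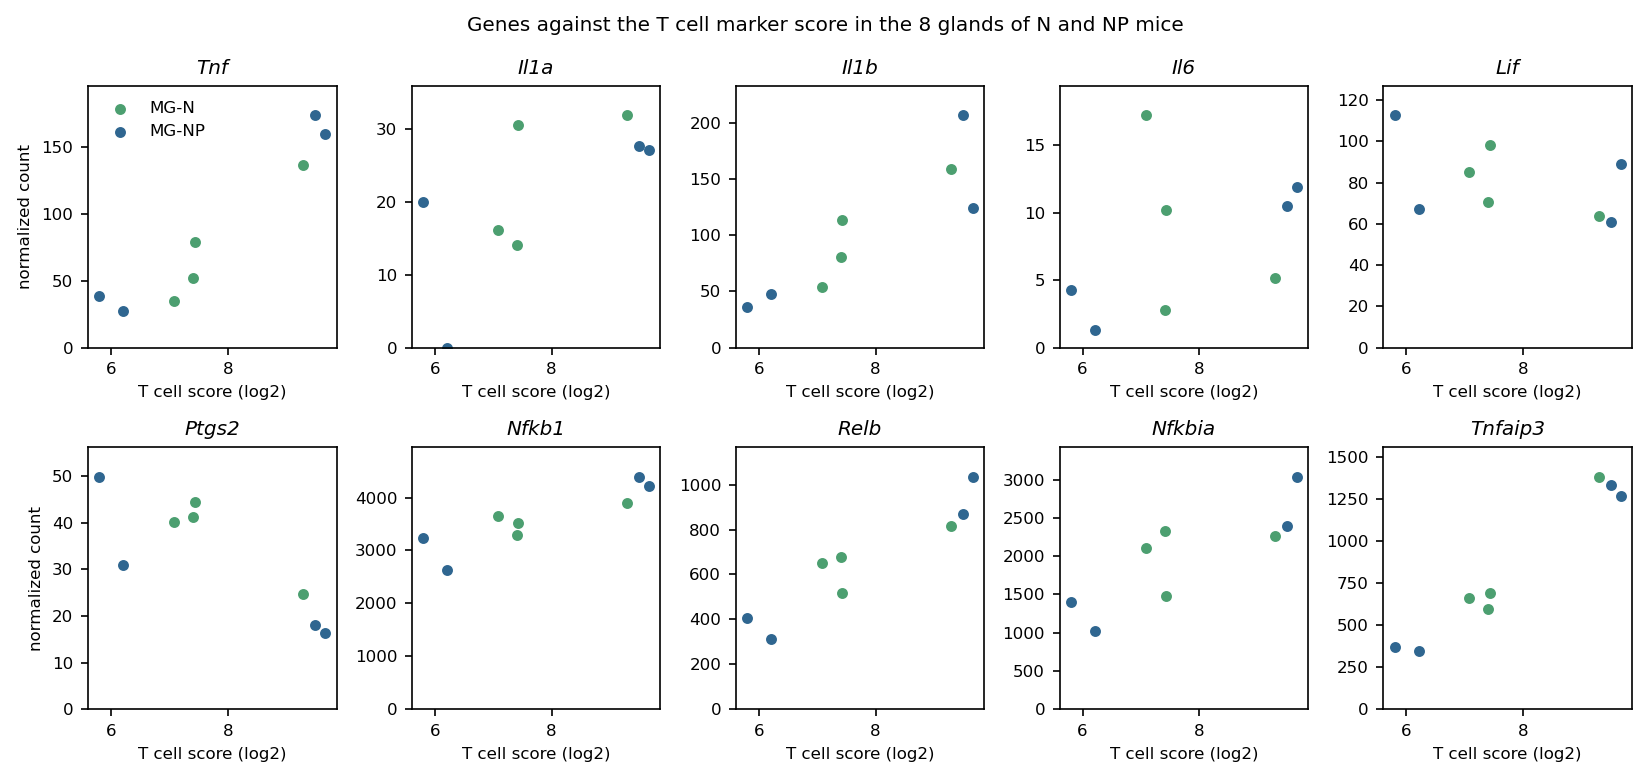
Normalized count of each gene against the T cell marker score (mean log2 of 8 genes) in the 8 glands of *N* and *NP* mice, with 1 point per library. *Tnf*, *Nfkb1*, *Relb* and *Tnfaip3* are highest in the 3 glands with scores of 9.29 to 9.67, where *Ptgs2* is lowest.

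Over the 16 libraries without MG-WT, correlations between the genes on the log2 scale describe a mix of tissues and genotypes. *Relb* went with *Tnfaip3* (Pearson r = 0.86) and *Nfkb1* (r = 0.78), and *Tnf* with *Tnfaip3* (r = 0.78). *Lif* went with *Ptgs2* (r = 0.69) and ran against *Relb* (r = -0.56), while *Ptgs2* ran against *Tnfaip3* (r = -0.57). The spread over these libraries also differed by gene, with an SD on the log2 scale of 0.35 for *Nfkb1* and 0.48 for *Nfkbia*, and of 1.05, 1.06 and 1.34 for *Il6*, *Ptgs2* and *Il1a*.

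The genes whose pattern was most like the mean of the 10 were named by Pearson r, as a description. Over all 19 libraries they were *Socs3* (0.97), *Nfkbiz* (0.96), *Klf16* (0.96), *Atxn7l3* (0.95), *Med13l* (0.95), *Nup210l* (0.95), *Ccnl1* (0.95), *Smad1* (0.95), *Rgs16* (0.94) and *Tra2b* (0.94), over a range in which MG-WT lay apart. Over the 16 libraries without MG-WT the list had none of these and included *Zmynd15* (0.88), *Pik3ap1* (0.87), *Tmsb4x* (0.85), *Evl* (0.85), *Bcl2a1a* (0.84), *B430306N03Rik* (0.83), *Irf1* (0.83), *Scimp* (0.83) and *Actr3* (0.82).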

How the data were processed

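RNA of mammary glands and tumors was sequenced as 75-bp pairs and aligned by the authors to GRCm38 with TopHat2 2.1.1 and Bowtie2. The library kit is a total RNA kit per the labels and an mRNA kit in the study's methods. The counting tool, its annotation and its strand setting are not given in the sources used here. The authors deposited normalized counts (a signal per gene, scaled by size factors) for 46078 genes in 19 libraries. Dividing by the smallest step gave whole reads, within 0.05 reads, for 100% of values.

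Groups came from the sample records. Log2(normalized count + 1) was fitted with limma 3.58.1 (R 4.3.3, trend), using only the groups compared and genes with at least 10 normalized counts in as many libraries as the smaller group. P-values were adjusted by the Benjamini-Hochberg method over all genes tested. Genes were called at an adjusted p under 0.05 and at least 2-fold. A fold change on this scale understates the change of low genes. edgeR 4.0.16 and DESeq2 1.42.0 on the recovered reads were among the alternatives. Only the limma step was tested on simulated counts, for T-NP against T-N and for MG-N against MG-WT. A limit of 3 reads was used for values of 0, which covers counting error only. Positions were from GENCODE vM21, which matched 97.97% of identifiers.

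The 10 genes and all lists were chosen with earlier results of these data known. Of the pathway list, up to 4 called genes that rose most and up to 4 that fell most were named per comparison, and so were the 10 genes most correlated with the mean of the set. Of these, 1 is not reported here. No p was adjusted over the list alone.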

Additional observations from a re-analysis of the deposited data

Results flagged for a closer look

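Among 40 groups of 4 libraries, 1 for each gene in the glands and tumors of *N* and *NP* mice, 3 held a library far from the rest on the log2 scale, where chance gives about 1 in 20. For *Il1a*, MG-NP replicate 4 was at 0 normalized counts, and its gap to the next library was 0.907 of the range of the group. For *Il1a* in T-N, replicate 4 had 18.7 normalized counts with a gap of 0.87 of the range. For *Tnf* in T-NP, replicate 1 had 38.1 normalized counts with a gap of 0.858 of the range, while replicate 2, which carries the same number in its name, had 72.0.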

How the results depend on the processing

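No called fall against MG-WT was lost in MG-N or T-NP under the 17 and 18 alternatives tried. In MG-NP against MG-WT, a muscle score as covariate left 2 of the 9 calls and reversed *Tnf* (0.28), *Il1b* (0.0792) and *Relb* (0.62). That score does not overlap between these groups, so muscle and group cannot be told apart. In T-N against MG-WT, *Il1b* was not called by edgeR (-1.17) and *Nfkb1* fell under 2-fold by edgeR (-0.93) and DESeq2 (-0.96). In T-N against MG-N, 4 of the 10 genes passed with no fold threshold in place of 2, and 1 to 4 when a library was left out. In T-NP against MG-NP, where 1 of the 10 genes was called, their count was 0 with TMM scaling, 2 with DESeq2 (*Lif* added), 2 with no fold threshold, 3 without the muscle-rich MG-NP libraries, and 0 to 1 when a library was left out. Averaging T-NP replicates 1 and 2 there ended the call of *Relb* and called *Lif* (1.12). The causes were not tested. In glands of *NP* against *N* mice, 9 of the 10 genes changed sign under some alternative, while over all genes limma and edgeR called 0, DESeq2 401 higher and 113 lower, limma on all 5 groups 12 higher and 4 lower, and limma 297 higher and 21 lower once MG-NP replicate 3 was left out. In T-NP against T-N, limma called 7 of all genes, edgeR 0 and DESeq2 51 higher and 34 lower. There limma called 34 higher and 18 lower without T-N replicate 1, 22 higher and 4 lower on all 5 groups, and 0 without any other single library, with T-NP replicates 1 and 2 averaged, with a pseudocount of 0.5, with a stricter filter on low values or with the replicate block. For the interaction DESeq2 called 50 higher and 269 lower where limma and edgeR called 0. Limma called 194 genes without MG-NP replicate 3, 20 without T-N replicate 1, 2 without MG-NP replicate 4 and 5 without both muscle-rich libraries. No setting called any of the 10 genes in these 3 comparisons.

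Groups share replicate numbers, but same-numbered libraries did not deviate together (r from -0.25 to 0.29, over 0.1 for 1 pair), so the numbers were not taken to pair samples. With the replicate number as a block, 0 of the 9 genes of the set tested were called in T-NP against MG-NP, where *Relb* lost its call. *Il1b* and *Nfkb1* lost their calls in T-N against MG-WT. Depth limits *Il6* outside MG-WT, where 1 to 15 reads stand behind each value.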
